A study of Mus musculus with 12 samples.

Results

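The genes described here are 48 genes of G2 phase and mitosis. They were taken as the listed symbols in the gene symbol column of both deposited comparison tables, and each was matched by its gene ID to the deposited count tables, where they make up 48 of 55416 gene IDs. They comprise 9 entry kinases, cyclins and phosphatases, 2 transcription factors, 5 genes of the spindle assembly checkpoint, 4 of the anaphase-promoting complex and separase, 4 of the chromosomal passenger complex, 7 of the centromere and kinetochore, 6 spindle motors and microtubule proteins, 5 genes of the central spindle and cytokinesis, and 6 of chromosome structure. Entry into mitosis is driven by the kinase CDK1 bound to B-type cyclins, which CDC25 phosphatases switch on. The spindle assembly checkpoint holds the anaphase-promoting complex until every kinetochore is attached to microtubules, after which cyclin B and securin are degraded, separase cuts cohesin and the cell divides. Most of these genes are transcribed late in the cell cycle under the MuvB complex with B-MYB and FOXM1, and the DREAM form of that complex represses them in resting cells.

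RNA-seq libraries of total RNA were made from B16 and YUMM1.1 mouse melanoma cells, either untreated or exposed for 48 h to 10 ng/ml of recombinant mouse IFNG. Interferon-gamma (IFNG) is a cytokine of T and NK cells that signals through JAK kinases. B16 is a pigmented line from a spontaneous mouse melanoma, and YUMM1.1 was derived from a tumour of a mouse engineered to develop melanoma, with an activated Braf allele among its changes. All groups shared the same medium with serum, and each of the 4 groups (B16 control, B16 IFNG, YUMM1.1 control and YUMM1.1 IFNG) had 3 libraries. The labels do not say whether these were separate cultures, so a p-value here covers only the spread between these libraries, which may be technical.

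Library totals ranged from 2573805 to 7888257 counts in B16 and from 19145253 to 24747859 counts in YUMM1.1. Irf1, Gbp2 and B2m, which IFNG induces, rose in both lines. All 8 melanocyte markers were detected in B16, with a summed level of 25813 scaled CPM in controls. In YUMM1.1 controls their sum was 728, almost all of it Sox10, and 2 of the 8 had no count. Summed markers stayed between 2.41 and 7.41 for leukocytes, between 3.87 and 29.0 for fibroblasts and under 1 for keratinocytes or endothelium in every library. The B16 IFNG 3 library stood apart from the other treated B16 libraries: the chi-square of the counts per degree of freedom was 17.2 and 16.9 against IFNG 1 and IFNG 2, which were at 1.27 to each other, and mitochondrial transcripts made up 1.95% of its counts against 1.07% and 1.04%. In YUMM1.1 Control 1 was at 41.5 and 32.3 against the other controls, which were at 14.0 to each other, with 1.1% mitochondrial transcripts against 0.56% and 0.622%. YUMM1.1 IFNG 3 was at 30.7 and 30.4 against the other treated libraries, which were at 13.5 to each other.

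Levels are scaled CPM, the CPM of edgeR with TMM scaling factors over the 12 libraries, and changes are log2 ratios of treated to untreated cells from edgeR with their SE. A gene was called where its Benjamini-Hochberg adjusted p over all tested genes was below 0.05, and all 48 members passed the filter on low counts in every comparison. Library totals used as the scale instead of TMM factors moved the median of all genes by -0.19 in B16, by -0.08 in YUMM1.1 and by -0.22 between the untreated lines, so every change is relative to the TMM scaling. In bulk RNA, fewer cells in G2 or mitosis and less of these RNAs per cell cannot be told apart.

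The promoters of the members share sequence features that the choice of genes did not use. RefSeq promoters on GRCm38.p6, from 250 bases before to 50 bases after each start, were found for 39 of the 48 members, the others being Ccna2, Smc4, Aurkb, Spc24, Kif20a, Tpx2, Foxm1, Cdc25c and Incenp. The cell cycle homology region (CHR), the element read by MuvB, was searched on both strands as TTTGAA or TTCGAA. The CCAAT box, the element read by NF-Y, was searched on both strands as CCAAT, and the CHR and CCAAT patterns can share bases. A CHR was present in 30 of 39 members (76.9%) against 21.7% of all 27025 genes with a promoter in the table, and a CCAAT box in 74.4% against 41.1%. Both were present in 27 of 39 (69.2%) against 8.61% of all genes. The E2F pattern TTTCGCGC or TTTGGCGC, typical of S-phase genes, was in 5.13% of the members, in 30.6% of the 36 matched DNA replication and G1/S genes and in 0.929% of all genes.

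The 7 stretches shown here run from 150 bases before to 30 bases after the start, 5′ to 3′ on the strand of the gene, with CHR and CCAAT matches on either strand in capitals. Ccnb2, Bub3, Ncapd2, Mki67, Cdc20 and Cdk1 are shown because they are among the members with a called fall in B16, and Ccnb1 because it is the cyclin beside Ccnb2 that was not called. On GRCm38.p6 the stretches lie for Ccnb2 at chr9:70421525-70421704 (minus strand), Bub3 at chr7:131560220-131560399 (plus strand), Ncapd2 at chr6:125191557-125191736 (minus strand), Mki67 at chr7:135716350-135716529 (minus strand), Cdc20 at chr4:118437314-118437493 (minus strand), Cdk1 at chr10:69352883-69353062 (minus strand) and Ccnb1 at chr13:100786457-100786636 (minus strand).
Ccnb2: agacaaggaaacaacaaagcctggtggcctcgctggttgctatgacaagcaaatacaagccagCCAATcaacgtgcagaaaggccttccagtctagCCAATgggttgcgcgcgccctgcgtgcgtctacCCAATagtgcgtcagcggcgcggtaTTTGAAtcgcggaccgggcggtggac
Bub3: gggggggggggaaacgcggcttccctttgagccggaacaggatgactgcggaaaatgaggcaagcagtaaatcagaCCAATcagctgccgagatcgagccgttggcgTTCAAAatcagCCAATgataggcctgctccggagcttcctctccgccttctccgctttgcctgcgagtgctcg
Ncapd2: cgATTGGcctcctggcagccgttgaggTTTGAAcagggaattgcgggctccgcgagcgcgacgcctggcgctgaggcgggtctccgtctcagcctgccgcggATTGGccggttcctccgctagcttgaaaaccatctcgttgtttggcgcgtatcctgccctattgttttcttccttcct
Mki67: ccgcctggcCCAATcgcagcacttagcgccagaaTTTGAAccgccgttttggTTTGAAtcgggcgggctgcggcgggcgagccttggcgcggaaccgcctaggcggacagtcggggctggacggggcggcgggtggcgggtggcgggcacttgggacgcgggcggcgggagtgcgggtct
Cdc20: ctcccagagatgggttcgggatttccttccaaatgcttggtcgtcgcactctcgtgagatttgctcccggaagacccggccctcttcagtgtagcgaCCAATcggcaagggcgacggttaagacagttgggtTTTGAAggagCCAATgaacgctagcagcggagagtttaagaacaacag
Cdk1: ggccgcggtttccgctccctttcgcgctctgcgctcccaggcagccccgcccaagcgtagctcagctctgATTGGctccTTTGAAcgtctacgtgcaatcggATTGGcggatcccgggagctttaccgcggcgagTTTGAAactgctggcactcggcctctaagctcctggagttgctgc
Ccnb1: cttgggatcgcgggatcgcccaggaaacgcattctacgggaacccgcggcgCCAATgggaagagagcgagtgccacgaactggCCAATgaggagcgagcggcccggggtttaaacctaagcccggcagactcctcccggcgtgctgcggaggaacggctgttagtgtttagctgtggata
In the stretch shown Ccnb2 holds 3 CCAAT boxes, beginning at positions -87, -54 and -21 counted from the first transcribed base as 1. It also holds a CHR that begins at position 5, and another CHR lies outside the stretch at -167. Cdc20 has a CHR at -18 between CCAAT boxes at -53 and -8, and Bub3 has one at -43 between CCAAT boxes at -74 and -32, in the reverse orientation. Cdk1 holds 2 CHRs, at -71 and -15, and Mki67 holds 2, at -116 and -98. Ccnb1 has CCAAT boxes at -99 and -67, and the letters of the CHR do not occur in its window.

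In B16 about as many mitotic genes fell with IFNG as were not called, and a single one rose. Of the 48 members 23 fell, 1 rose (Cenpe, a kinetochore motor) and 24 were not called by edgeR. Across all tested genes 44.1 percent were called, 22 percent lower and 22.1 percent higher, and 47.9 percent of the members were called lower. The median log2 change of the members was -0.34 against -0.01 for all 11240 tested genes. Values below 0 were found in 41 of 48 members, against 50.7 percent of all genes. In 29 of 48 members every treated library was below every control library, which held for 29.5 percent of all genes, and in Cenpe alone every treated library was above every control (26.7 percent of all genes). The summed level of the members was 5834, 6059.9 and 5883 in the controls and 4389, 4389 and 4420 in the treated libraries, so the groups were apart by far more than their spread. Without B16 IFNG 3, 31 members were lower and 1 higher, where 28 percent of all genes were lower and 28.1 percent higher. Scaled by library totals 35 were lower and none higher, but this scaling moved the median of all genes by -0.19 and called 34.4 percent of them lower and 15.2 percent higher.

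**Figure D1:**
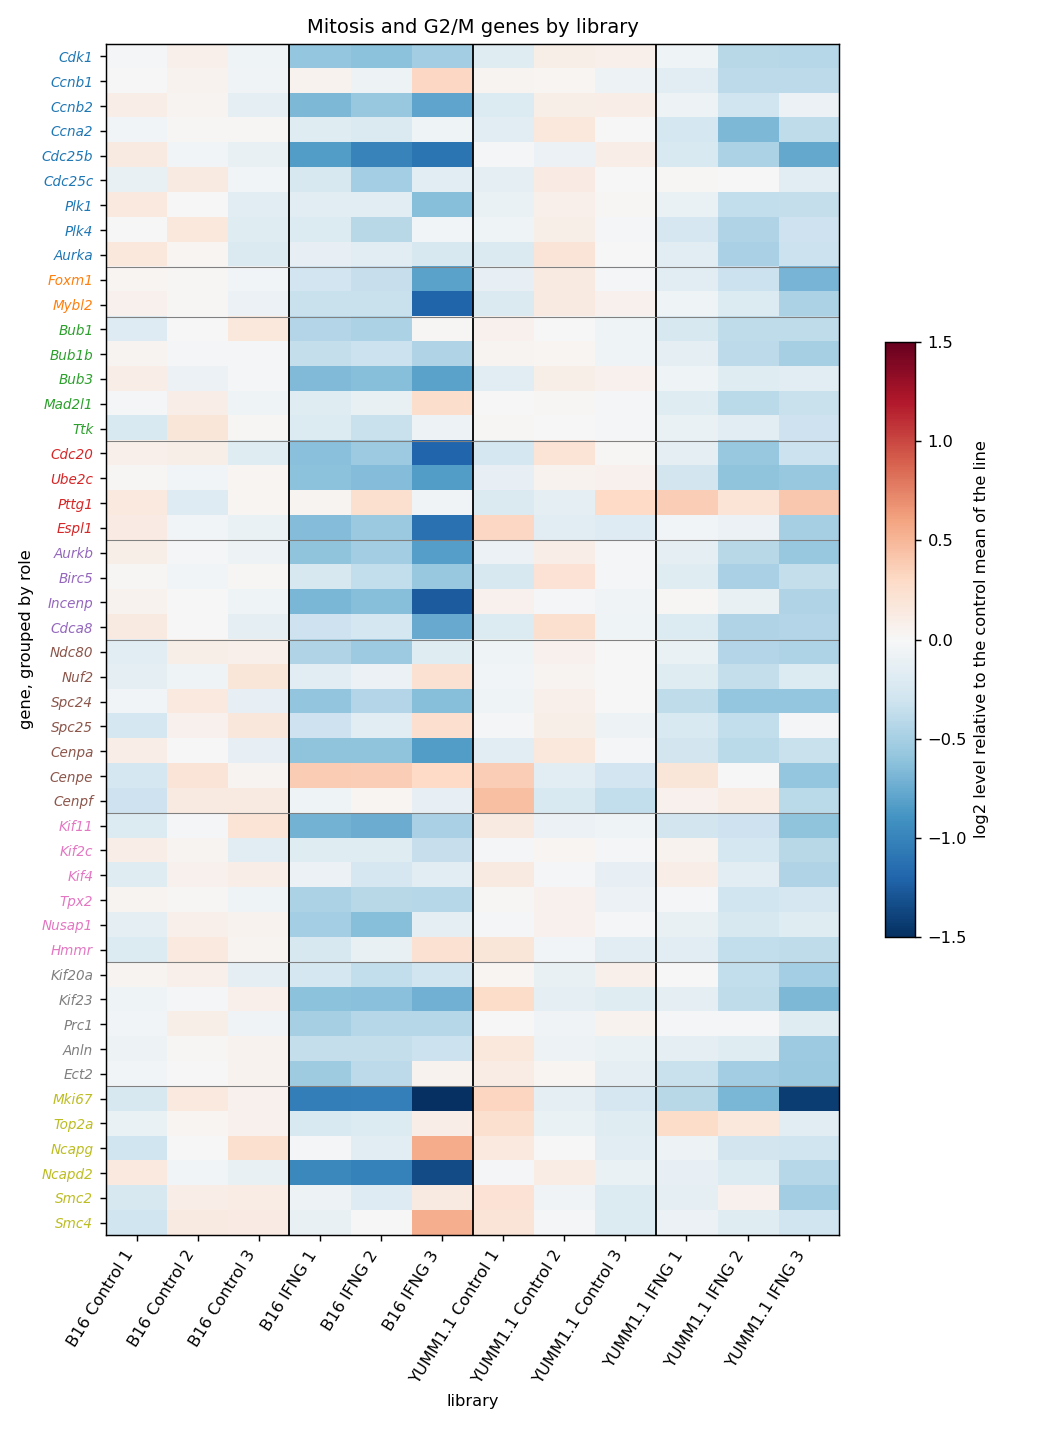
Log2 level of each of the 48 members (rows, grouped by role) in each of the 12 libraries (columns), relative to the mean of the controls of its line, with blue for lower and red for higher. The treated B16 columns are blue for most rows and are darkest for Mki67 and Ncapd2, while the treated YUMM1.1 columns are paler.

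Among the entry genes, 3 of 9 fell in B16. Cdc25b, the phosphatase that starts CDK1 activation, was at 112, 99.3 and 94.4 scaled CPM in the B16 controls and at 56.9, 51.0 and 47.6 in the treated libraries. The groups did not overlap, and the fall was 1.95-fold (log2 -0.97 ± 0.11 SE, adjusted p = 0.000104). Ccnb2, a B-type cyclin, was at 134, 128 and 113 scaled CPM in the B16 controls and at 78.3, 84.6 and 72.2 in the treated libraries. It fell 1.59-fold (log2 -0.67 ± 0.10 SE, adjusted p = 0.000691), again with no overlap. Cdk1 itself was at 198, 211 and 192 scaled CPM in the B16 controls and at 134, 131 and 139 in the treated libraries. Its treated libraries lay close together and all below the controls, a 1.47-fold fall (log2 -0.56 ± 0.09 SE, adjusted p = 0.000704). Ccnb1, the main partner of CDK1, was at 72.7, 75.3 and 70.1 scaled CPM in the B16 controls and at 75.6, 69.2 and 89.9 in the treated libraries, and IFNG 3 was the highest library of both groups. Its log2 change was 0.12 (adjusted p = 0.43), and it was not called. Ccna2, Cdc25c, Plk1, Plk4 and Aurka, a cyclin, a phosphatase and 3 mitotic or centriole kinases, had log2 values between -0.30 and -0.13 and were not called.

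Of the transcription factors Foxm1 fell in B16 and Mybl2 was not called. Foxm1 was at 253, 250.3 and 241 scaled CPM in the B16 controls and at 204, 195 and 142 in the treated libraries. IFNG 3 was the lowest, and all treated libraries lay below the controls (log2 -0.45 ± 0.13 SE, adjusted p = 0.0209). Without B16 Control 1 or without B16 Control 2 Foxm1 was not called, with an adjusted p of up to 0.0556. Mybl2, which encodes B-MYB, was at 45.3, 43.7 and 40.8 scaled CPM in the B16 controls and at 34.3, 34.4 and 18.9 in the treated libraries. The groups did not overlap, but IFNG 3 lay far below the other treated libraries, and the change was not called (log2 -0.56 ± 0.21 SE, adjusted p = 0.0517). It was called lower under 11 of 16 alternatives (adjusted p down to 0.000936), among them DESeq2, limma-voom, GC offsets, the replicate block and leaving out any 1 treated library.

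Of the spindle checkpoint genes, Bub3 and Bub1b fell in B16. Bub3, a WD-repeat protein that recruits BUB1 and BUBR1 to kinetochores, was at 284, 249.5 and 259.5 scaled CPM in the B16 controls and at 167, 169 and 151 in the treated libraries. It fell 1.61-fold with no overlap (log2 -0.69 ± 0.09 SE, adjusted p = 0.000267). Bub1b, which encodes BUBR1, changed by log2 -0.37 ± 0.09 SE, adjusted p = 0.00847. The checkpoint kinases Bub1 (-0.26) and Ttk (-0.17) and the CDC20 inhibitor Mad2l1 (0.02) were not called. Of the 4 genes that act at anaphase onset 3 fell. Ube2c, the ubiquitin-conjugating enzyme of the anaphase-promoting complex, was at 94.9, 90.8 and 95.7 scaled CPM in the B16 controls and at 61.1, 60.0 and 52.6 in the treated libraries, with no overlap (log2 -0.68 ± 0.10 SE, adjusted p = 0.000571). Its activator Cdc20 was at 112, 113 and 93.7 scaled CPM in the B16 controls and at 68.7, 72.4 and 46.4 in the treated libraries. IFNG 3 was the lowest library, and the fall was 1.69-fold (log2 -0.76 ± 0.16 SE, adjusted p = 0.0045). Espl1, which encodes separase, fell 1.68-fold (log2 -0.75 ± 0.15 SE, adjusted p = 0.00263), whereas Pttg1, its inhibitor securin, was at log2 0.09 (adjusted p = 0.645).

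All 4 genes of the chromosomal passenger complex, which corrects faulty kinetochore attachments, fell in B16. Its kinase Aurkb was at 135, 126 and 120.3 scaled CPM in the B16 controls and at 84.0, 88.6 and 71.5 in the treated libraries. The groups were apart, with a 1.55-fold fall (log2 -0.63 ± 0.11 SE, adjusted p = 0.00117). The scaffold Incenp was at 158, 154 and 147 scaled CPM in the B16 controls and at 95.1, 98.6 and 64.6 in the treated libraries, lowest in IFNG 3 (log2 -0.82 ± 0.15 SE, adjusted p = 0.00191). Birc5 (survivin) changed by log2 -0.37 ± 0.11 SE, adjusted p = 0.0183 and Cdca8 (borealin) by log2 -0.42 ± 0.14 SE, adjusted p = 0.0349, and Cdca8 was not called without B16 Control 1 or without B16 Control 2 (adjusted p up to 0.115).

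The kinetochore genes were split. Cenpa, the centromeric histone, fell by 1.59-fold (log2 -0.67 ± 0.11 SE, adjusted p = 0.00085), and Spc24 was at 44.5, 50.9 and 42.1 scaled CPM in the B16 controls and at 30.5, 33.8 and 29.5 in the treated libraries, with no overlap (log2 -0.54 ± 0.12 SE, adjusted p = 0.00553). Spc24 is a subunit of the NDC80 complex, which grips microtubules, and its partners in that complex were not called: Ndc80 at -0.36, Nuf2 at 0.04 and Spc25 at -0.02. Cenpe was at 57.9, 79.5 and 71.5 scaled CPM in the B16 controls and at 90.7, 90.0 and 85.4 in the treated libraries. All treated libraries lay above the controls (log2 0.37 ± 0.13 SE, adjusted p = 0.0451), and this rise was lost under 8 of 16 alternatives (adjusted p up to 0.29), among them library totals, offsets for GC content and leaving out B16 Control 1, Control 3, IFNG 1 or IFNG 2. Cenpf, a large kinetochore protein, was at -0.03 and not called.

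Among spindle motors and microtubule proteins, Kif11 (the motor that pushes the poles apart) fell by 1.54-fold (log2 -0.62 ± 0.13 SE, adjusted p = 0.00453) and Tpx2, an activator of Aurora A, by 1.34-fold (log2 -0.42 ± 0.08 SE, adjusted p = 0.00251). Kif2c, Kif4, Nusap1 and Hmmr were between -0.39 and -0.01 and not called. Of the cytokinesis genes 4 of 5 fell: Kif23 (-0.63), a motor of centralspindlin, Prc1 (-0.44), which bundles the central spindle, Anln (-0.33), which organises the contractile ring, and Kif20a (-0.30), a central spindle motor. Ect2, the exchange factor for RhoA, was at -0.25 and not called. Kif20a was lost under 7 of 16 alternatives (adjusted p up to 0.124) and Anln under 4 (up to 0.0569), and both without B16 Control 2 or without B16 IFNG 1.

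Both the largest fall of the members and log2 values close to 0 were found among the chromosome structure genes. Mki67, the proliferation marker that coats mitotic chromosomes, was at 336, 442 and 415 scaled CPM in the B16 controls and at 194, 195 and 141 in the treated libraries. Every treated library lay far below every control, a 2.24-fold fall (log2 -1.16 ± 0.15 SE, adjusted p = 0.00026). The condensin subunit Ncapd2 was at 493, 431 and 412 scaled CPM in the B16 controls and at 228, 220.4 and 176 in the treated libraries. It fell 2.12-fold and had the smallest adjusted p of all members (log2 -1.08 ± 0.12 SE, adjusted p = 7.1e-05). The other condensin genes among the members, Ncapg (0.19), Smc2 (-0.01) and Smc4 (0.19), were not called. Ncaph, a condensin gene outside the members, was at 95.7, 96.7 and 95.7 scaled CPM in the B16 controls. In the treated libraries it was at 69.2, 63.0 and 64.0, all below the controls. Ncapg2, also outside the members, overlapped between the groups. Top2a, the topoisomerase that untangles chromosomes, was at 539.8, 589.6 and 605 scaled CPM in the B16 controls and at 495, 503 and 618 in the treated libraries. IFNG 3 was the highest of all 6 libraries, and the log2 change was -0.09 (adjusted p = 0.539).

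**Figure D2:**
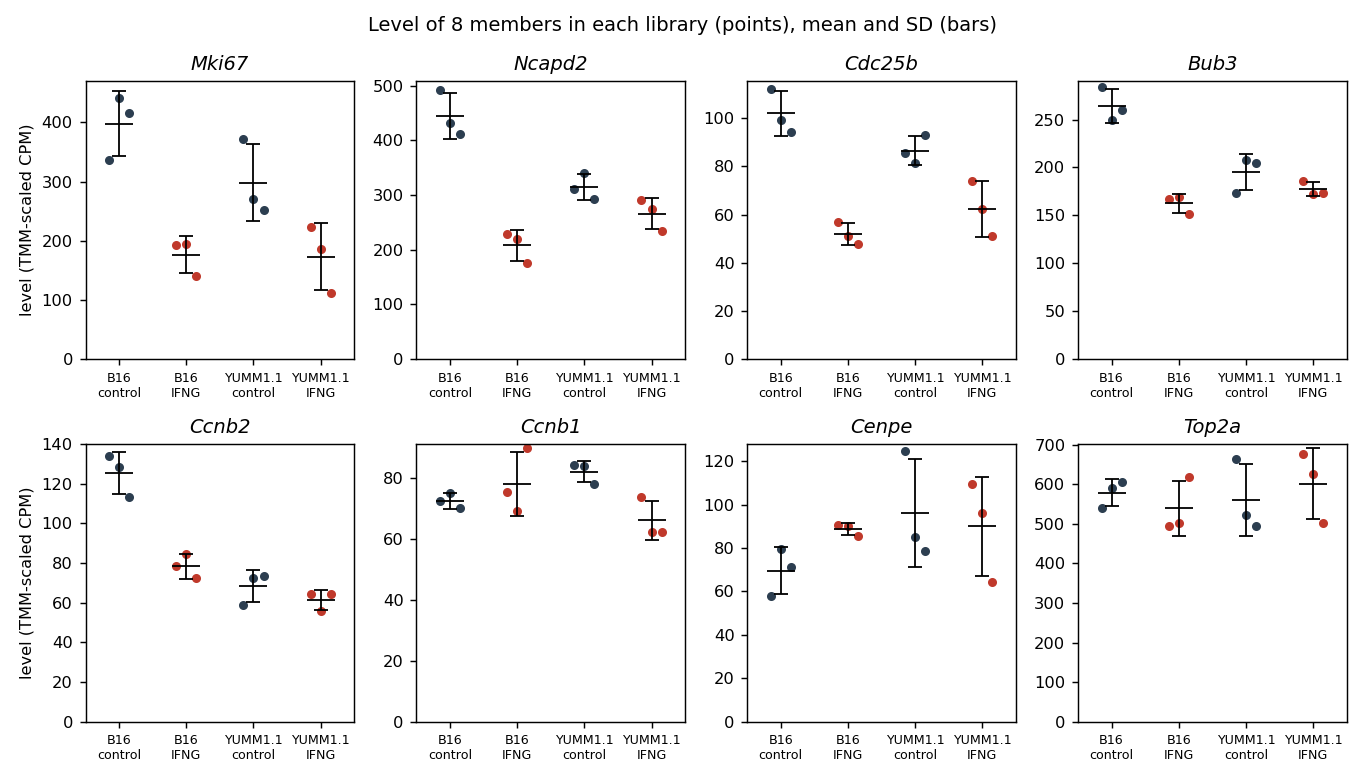
Level in scaled CPM (vertical axis from 0) of 8 members in the 3 libraries of each group (points), with the mean and SD as bars. Mki67, Ncapd2, Cdc25b, Bub3 and Ccnb2 have treated B16 libraries below all B16 controls, Ccnb1 and Top2a overlap in B16, and Cenpe lies higher in treated B16 libraries.

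In YUMM1.1 most members had log2 values below 0, but few passed the test. Spc24 and Ect2 fell, none rose and 46 were not called. Of all tested genes 4.56 percent were called, 0.825 percent lower and 3.73 percent higher, and 4.17 percent of the members were called lower. The median log2 change was -0.29 against -0.01 for all 12970 genes, and 46 of 48 members were below 0, against 51.0 percent of all genes. At an unadjusted p below 0.05 edgeR gave 24 members lower and 0 higher, against 6.22 percent of all genes lower and 8.8 percent higher. DESeq2 called 6 lower and limma-voom 2 lower, and neither tool called a rise. Of all genes DESeq2 called 1.57 percent lower and limma-voom 0.786 percent. In 22 of 48 members every treated library lay below every control, which held for 8.91 percent of all genes, and in 0 of 48 every treated library lay above every control (11.4 percent of all genes). The summed level was 6564, 6513 and 6146 in the controls and 6015, 5308 and 4825 in the treated libraries. IFNG 1 was the highest treated library for 43 of the 48 members. Without Control 1, 2 members were called lower, Spc24 and Ube2c, with a median over the members of -0.27. Without IFNG 3 none was called by edgeR, with a median of -0.25. Of all genes 0.592 percent were called lower without Control 1 and 0.561 percent without IFNG 3.

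Spc24 was at 26.9, 29.6 and 28.0 scaled CPM in the YUMM1.1 controls and at 21.6, 18.9 and 18.9 in the treated libraries. The groups did not overlap, with a 1.43-fold fall (log2 -0.51 ± 0.12 SE, adjusted p = 0.0325). Ect2 was at 82.2, 77.7 and 68.6 scaled CPM in the YUMM1.1 controls and at 60.7, 53.0 and 51.8 in the treated libraries, also apart (log2 -0.47 ± 0.11 SE, adjusted p = 0.0456). Spc24 was not called under 5 and Ect2 under 8 of 15 alternatives: neither was called with a replicate block or without YUMM1.1 Control 2, Control 3, IFNG 2 or IFNG 3, with adjusted p of up to 0.177 and 0.206. Ube2c was next by adjusted p, at 201, 227 and 229 scaled CPM in the YUMM1.1 controls and at 182, 144 and 148 in the treated libraries. Its groups did not overlap, and it missed the threshold (log2 -0.48 ± 0.12 SE, adjusted p = 0.0547), but was called lower under 7 of 15 alternatives, DESeq2 among them (adjusted p down to 0.00768). Cdc25b was at 85.4, 81.3 and 93.0 scaled CPM in the YUMM1.1 controls and at 74.0, 62.1 and 50.9 in the treated libraries (log2 -0.48 ± 0.14 SE, adjusted p = 0.0996). Bub1 was at 91.3, 86.7 and 83.6 scaled CPM in the YUMM1.1 controls and at 73.8, 66.9 and 67.2 in the treated libraries (log2 -0.34 ± 0.10 SE, adjusted p = 0.11). Both had all treated libraries below the controls and neither was called. Kif11, the motor that fell in B16, was at 151, 130.1 and 132 scaled CPM in the YUMM1.1 controls and at 114, 111 and 91.1 in the treated libraries and was not called here (log2 -0.39 ± 0.12 SE, adjusted p = 0.119).

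Mki67 had the lowest log2 value in YUMM1.1 as in B16. It was at 373, 270.4 and 251 scaled CPM in the YUMM1.1 controls and at 223, 185 and 111 in the treated libraries, with IFNG 3 far below the other treated libraries, and was not called (log2 -0.79 ± 0.24 SE, adjusted p = 0.123). It was called lower under 4 of 15 alternatives, with no filter, DESeq2, the replicate block or all 12 libraries in 1 fit (adjusted p down to 1.58e-06). Ccnb1 was at 84.4, 84.1 and 78.2 scaled CPM in the YUMM1.1 controls and at 73.7, 62.5 and 62.5 in the treated libraries, with no overlap (log2 -0.32 ± 0.11 SE, adjusted p = 0.177). Cdk1 was at 273, 327 and 327 scaled CPM in the YUMM1.1 controls and at 296, 231 and 229.7 in the treated libraries, with IFNG 1 inside the range of the controls (log2 -0.30 ± 0.13 SE, adjusted p = 0.334). Aurkb was at 98.5, 112 and 103 scaled CPM in the YUMM1.1 controls and at 94.6, 78.3 and 70.6 in the treated libraries, all treated below all control libraries (log2 -0.37 ± 0.12 SE, adjusted p = 0.174). Foxm1 was at 213, 256 and 228 scaled CPM in the YUMM1.1 controls and at 206, 186 and 144 in the treated libraries and also apart (log2 -0.39 ± 0.14 SE, adjusted p = 0.218). Top2a was at 663, 523 and 494 scaled CPM in the YUMM1.1 controls and at 676, 626 and 501 in the treated libraries, and its groups overlapped (log2 0.10 ± 0.15 SE, adjusted p = 0.847). The 2 members above 0 were Top2a and Pttg1, the securin gene (log2 0.33, adjusted p = 0.367).

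The test of the difference between the lines, the IFNG effect in YUMM1.1 minus that in B16 over all 12 libraries, called 4 members. All 4 fell in B16 and had a log2 change closer to 0 in YUMM1.1, where none of them was called. This is 8.33 percent of the members against 18.5 percent of all genes called, 9.95 percent of them higher and 8.51 percent lower. At an unadjusted p below 0.05, 8 members (16.7 percent) were higher and 1 lower (Ccnb1), against 16.6 percent of all genes higher and 14.4 percent lower. DESeq2 called 4 higher and Ccnb1 lower. Of all genes DESeq2 called 20.6 percent in this test, 9.67 percent higher and the rest lower. Ncapd2 was at 312, 339.8 and 293 scaled CPM in the YUMM1.1 controls and at 290.0, 274 and 234 in the treated libraries, with all treated libraries below the controls by a smaller margin than in B16, and the difference was log2 0.86 ± 0.18 SE, adjusted p = 0.00282. Bub3 was at 173, 208 and 204 scaled CPM in the YUMM1.1 controls and at 186, 173 and 174 in the treated libraries, with overlap between the groups (difference log2 0.57 ± 0.15 SE, adjusted p = 0.0146). Incenp was at 169, 159 and 156 scaled CPM in the YUMM1.1 controls and at 163, 149 and 118 in the treated libraries, and its groups overlapped (difference log2 0.67 ± 0.21 SE, adjusted p = 0.0355). Ccnb2 was at 59.0, 72.4 and 73.3 scaled CPM in the YUMM1.1 controls and at 64.5, 55.7 and 64.2 in the treated libraries, with overlap (difference log2 0.53 ± 0.17 SE, adjusted p = 0.0387). Ncapd2 was called under all 21 alternatives. Bub3 was lost only without B16 Control 1 (adjusted p = 0.0596), whereas Incenp was lost under 8 and Ccnb2 under 9, most of them fits without 1 library (adjusted p up to 0.0919 and 0.124). Both were lost without B16 Control 1, B16 Control 2, B16 IFNG 3 or YUMM1.1 IFNG 1.

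The next members by adjusted p missed the threshold. Cdc25b had a difference of log2 0.51 ± 0.19 SE, adjusted p = 0.0779. Prc1 was at 220.1, 214 and 229.8 scaled CPM in the YUMM1.1 controls and at 216, 219 and 195 in the treated libraries, where the groups overlapped, and its difference was log2 0.37 ± 0.14 SE, adjusted p = 0.0752. Ccnb1 went the other way, with a difference of log2 -0.42 ± 0.17 SE, adjusted p = 0.0938. The SE of the difference reached 0.31, for Mki67, so a missing call does not show that a gene responded alike in the lines. Across the 48 members the log2 changes of the lines, which share no libraries, had r = 0.46 (Spearman 0.35), against 0.70 (Spearman 0.28) across all 10689 genes tested in both, a description over genes that share libraries within each line.

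**Figure D3:**
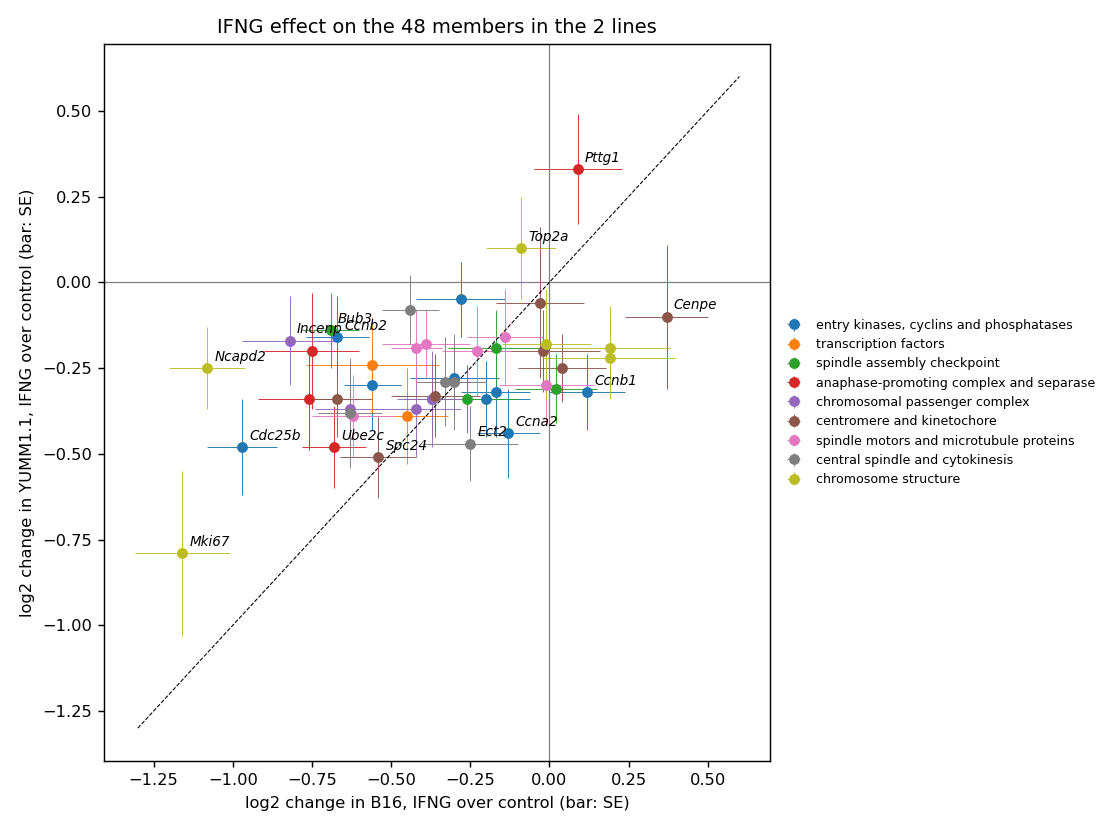
Log2 change of each member in YUMM1.1 (vertical) against B16 (horizontal), with the SE as bars, colours for roles and a dashed line of equal change. Ncapd2, Bub3, Incenp and Ccnb2 lie above the line with larger falls in B16, and Mki67 is lowest in both lines.

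In B16 the size of the change followed the GC content of the transcripts among these genes. Across the 48 members r between GC percent and log2 change was -0.65 (Spearman -0.65). Over all 11224 genes with a GC value it was -0.18 (Spearman -0.27). In YUMM1.1 r was -0.19 for the members (Spearman -0.19) and -0.03 for all genes (Spearman -0.02). Of the 24 members with 47.1 to 56.1% GC, 18 fell in B16 with a median of -0.55. Of the 24 with 36.5 to 46.9% GC, 5 fell and 1 rose with a median of -0.15. Over all tested genes 22 percent were called lower and 22.1 percent higher, and these shares were not split by GC content. In YUMM1.1 the medians of the same sets of 24 members were -0.29 and -0.27. Among the members of 2 complexes the called gene had the highest GC content. Spc24 has 54.6% GC and its uncalled partners Nuf2, Spc25 and Ndc80 have 42.2%, 43.2% and 43.6%. Ncapd2 has 53.7%, and the uncalled condensin genes among the members, Ncapg, Smc4 and Smc2, have 36.5%, 39.4% and 40.3%. GC content did not order all partners: Ndc80 was at log2 -0.36 and Spc25, of nearly the same GC content, at -0.02. Nor did it order all members. Plk1 (56.1% GC, log2 -0.30) and Mybl2 (55.8% GC, log2 -0.56) were not called, whereas Kif11 (41.8% GC, log2 -0.62) and Anln (42.2% GC, log2 -0.33) fell. The same gradient separated libraries of 1 group: r between GC percent and the log2 ratio of a library to the mean of the others in its group was -0.87 for B16 IFNG 3, 0.8 for IFNG 1 and for IFNG 2, 0.77 for B16 Control 1 and -0.72 for B16 Control 3. B16 was therefore also fitted with offsets for GC content in each library, an alternative chosen after the data were seen.

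With these offsets 35 of 48 members fell in B16, none rose by edgeR, and r with GC percent was -0.39. Under the same fit 28.4 percent of all genes were called lower and 30.7 percent higher. Of the 24 members of higher GC 20 fell and of the 24 of lower GC 15 fell, with medians of -0.45 and -0.25. Mad2l1, at 0.02 without offsets, fell by 0.18 on the log2 scale (adjusted p = 0.042), Top2a fell by 0.22 (adjusted p = 0.00136) and Ndc80 fell by 0.47 (adjusted p = 0.000441). Cenpe was at 0.27 and not called (adjusted p = 0.0998). Ccnb1 stayed near its controls at 0.01 (adjusted p = 0.956), and Nuf2, Spc25, Ncapg and Smc4 were between -0.14 and -0.05 and not called. Smc2 was at -0.22 and also not called (adjusted p = 0.0558). The falls of Ncapd2 (-1.0) and Incenp (-0.73) were close to those without offsets.

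**Figure D4:**
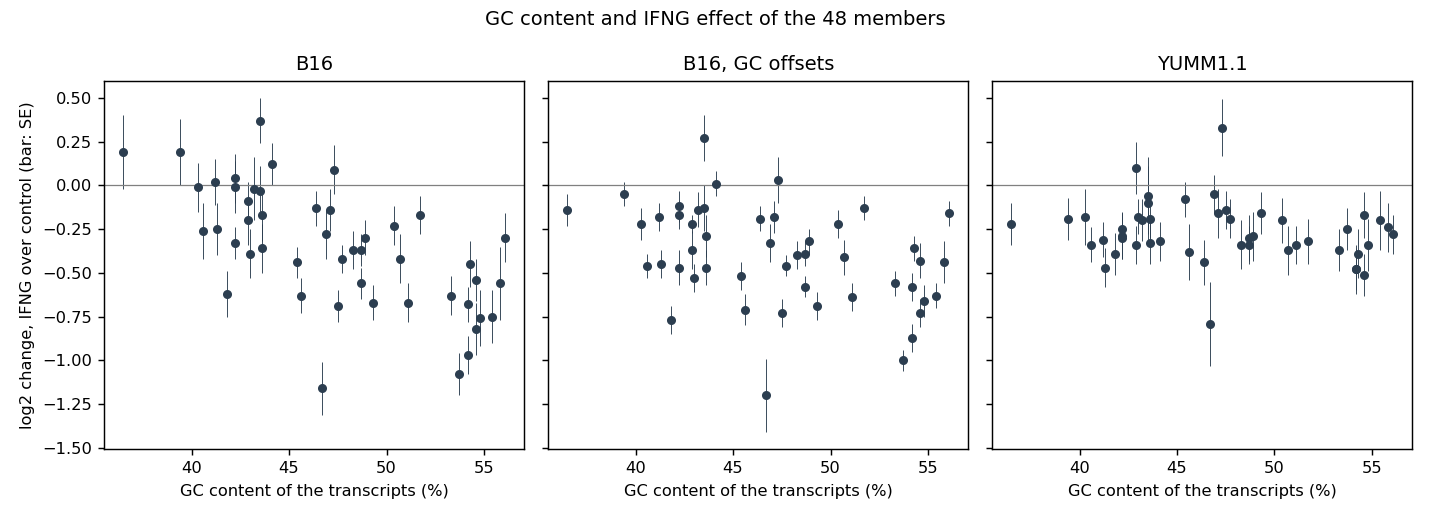
Log2 change of each member with its SE (vertical) against the GC content of its transcripts in percent (horizontal), in B16, in B16 with GC offsets and in YUMM1.1. The B16 values slope down from the low to the high GC members, less steeply with offsets, and the YUMM1.1 values are nearly level.

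Where a promoter was known, the members with both a CHR and a CCAAT box fell in B16 in 15 of 27 cases, with a median of -0.42, and those without both in 2 of 12, with a median of -0.22. In YUMM1.1 the medians were -0.30 and -0.27. Of the 9 members with no listed promoter, 6 fell, with a median of -0.42. Among all genes tested in B16, 24.7 percent of the 615 with both elements were called lower, 21.8 percent of the 8254 without both and 22.0 percent of the 2371 with no promoter in the table. These counts describe the listed genes and were not tested.

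Untreated YUMM1.1 and B16 cells expressed all 48 members, and per kilobase of exon their log2 levels had r = 0.89 across the members. The levels of both lines were divided by the same exon lengths, which can raise this r. It was not computed over all genes. The 2 most abundant members per kilobase were Ccnb2 (81.8 scaled CPM per kb) and Ncapd2 (71.0) in B16 controls, and Ube2c (84.3) and Cdc20 (80.5) in YUMM1.1 controls. Cdc20 was at 125, 173 and 152 scaled CPM in the YUMM1.1 controls, above all B16 controls given earlier (log2 0.50 ± 0.16 SE, adjusted p = 0.0134), and was not called with library totals or without B16 Control 3 or YUMM1.1 Control 2 (adjusted p up to 0.132). In the test between untreated lines 18 members were higher and 8 lower in YUMM1.1 and 22 were not called, against 68.1 percent of all genes called, 34.7 percent higher and 33.4 percent lower. This split depended on the scaling: with library totals 12 were higher and 14 lower, against 27.9 and 41.1 percent of all genes.

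Ube2c was at 94.9, 90.8 and 95.7 scaled CPM in B16 controls and at 201, 227 and 229 in YUMM1.1 controls, 2.34-fold higher (log2 1.22 ± 0.12 SE, adjusted p = 8.57e-08). Prc1 was at 105, 115 and 103 and 220.1, 214 and 229.8 (log2 1.04 ± 0.10 SE, adjusted p = 9.15e-08). Both were apart by many times the spread within a line. Nuf2 was at 43.0, 44.9 and 53.3 in B16 and 96.3, 102 and 98.8 in YUMM1.1 (log2 1.09 ± 0.12 SE, adjusted p = 8.06e-07). Ccna2, the S and G2 cyclin, was at 102, 106 and 107 and 179, 224 and 199.9 (log2 0.94 ± 0.12 SE, adjusted p = 3.71e-06). Ccnb2 had the opposite order, at 134, 128 and 113 in B16 and 59.0, 72.4 and 73.3 in YUMM1.1 (log2 -0.88 ± 0.12 SE, adjusted p = 6.12e-06). Espl1 was also lower in YUMM1.1, at 121, 108 and 104 against 64.7, 46.5 and 45.6 (log2 -1.09 ± 0.17 SE, adjusted p = 2.7e-05). None of these 6 genes overlapped between the lines (no overlap held for 37.6 percent of all genes in the direction higher in YUMM1.1 and for 35.7 percent in the other, and for 21 and 9 of the 48 members), and each was called under all 20 alternatives. Of the 4 members whose IFNG effect differed between lines, Ncapd2, Bub3 and Ccnb2 were lower in untreated YUMM1.1 (log2 -0.50, -0.44 and -0.88) and Incenp was not called (0.07). These comparisons share the control libraries.

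**Figure D5:**
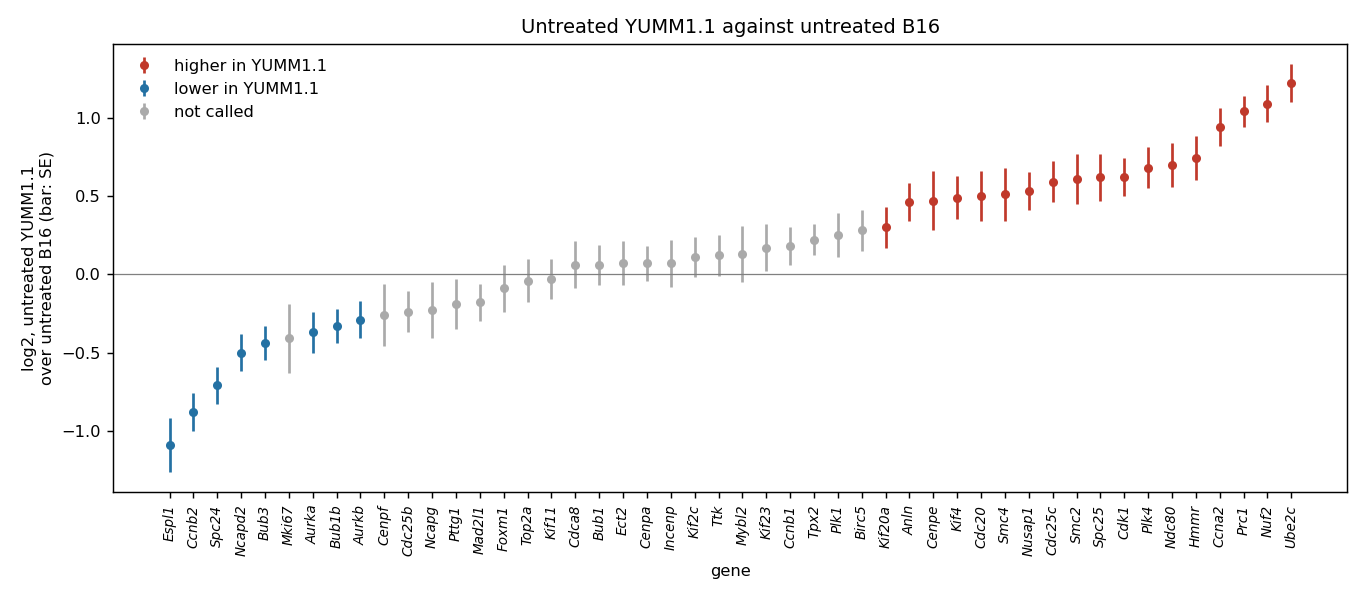
Log2 ratio of untreated YUMM1.1 to untreated B16 with its SE (vertical) for the 48 members in order of the ratio, red where higher, blue where lower and grey where not called. Values run from -1.09 for Espl1 to 1.22 for Ube2c.

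Another 78 genes of G2 and mitosis were counted in the same way. In B16 37 of 78 fell and 1 rose, with a median log2 of -0.38, where 22 percent of all genes fell and 22.1 percent rose. In YUMM1.1 2 fell and none rose, with a median of -0.23, where 0.825 percent of all genes fell and 3.73 percent rose. At an unadjusted p below 0.05, 19 were lower and 0 higher in YUMM1.1, against 6.22 and 8.8 percent of all genes. In B16 the smallest adjusted p values belonged to Ncapd3, a condensin II subunit (log2 -0.95 ± 0.10 SE, adjusted p = 4.6e-05), to Lmnb1 (lamin B1; log2 -0.81 ± 0.09 SE, adjusted p = 9.36e-05) and to Cks1b, a CDK-binding subunit (log2 -0.93 ± 0.11 SE, adjusted p = 0.000128). The gene that rose was Zw10, a checkpoint protein that also serves in membrane traffic, at 106, 101 and 106 scaled CPM in controls and 152, 143 and 153 in treated libraries (log2 0.53 ± 0.09 SE, adjusted p = 0.00105). In YUMM1.1 Ska3, a kinetochore protein (log2 -0.51 ± 0.12 SE, adjusted p = 0.0362), and Lmnb1 (log2 -0.51 ± 0.12 SE, adjusted p = 0.0401) fell, and Ckap2l, a spindle protein, was not called (log2 -0.38 ± 0.11 SE, adjusted p = 0.0898). The difference between lines was called for 7 of 78, all with a positive log2 value of the effect in YUMM1.1 minus that in B16. In that test 9.95 percent of all genes were called higher and 8.51 percent lower.

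The same was done for 45 genes of DNA replication and the G1/S transition. Of all tested genes 22 percent were called lower in B16 and 0.825 percent in YUMM1.1. At an unadjusted p below 0.05 the shares lower were 26.0 and 6.22 percent. In B16 25 of them fell and none rose by edgeR (0 also at an unadjusted p below 0.05), with a median of -0.45, led by Pole, the leading-strand polymerase (log2 -0.77 ± 0.10 SE, adjusted p = 0.000166), and Cdc45, part of the replicative helicase (log2 -0.82 ± 0.11 SE, adjusted p = 0.000308). In YUMM1.1 none of 45 was called (8 lower and 0 higher at an unadjusted p below 0.05), with a median of -0.21. There Ccne2, a G1 cyclin, was not called (log2 -0.50 ± 0.16 SE, adjusted p = 0.141). Between untreated lines 6 of the 45 replication genes were higher and 27 lower in YUMM1.1. Of all genes 34.7 percent were higher and 33.4 percent lower. The median of the replication genes was -0.59 against 0.13 for the members.

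In the authors' deposited table the 48 members had a median log2 change of -0.32 in B16, with 25 lower and 1 higher at the authors' unadjusted p below 0.05. For YUMM1.1 the authors' deposited table gave a median of -0.29, with 26 lower and none higher. The shares of all genes in the authors' tables were not counted. In the edgeR fits, at an unadjusted p below 0.05, 26.0 percent of all genes were lower and 25.7 percent higher in B16. In YUMM1.1 these shares were 6.22 and 8.8 percent. The sign was the same as in the edgeR values for 45 of 48 members in B16 and for 48 of 48 in YUMM1.1. Both compare the same groups of the series, so this match is not independent support.

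Reads of some members can also come from another gene. In GENCODE M21 on GRCm38, 15 of the 48 share exon bases with another annotated gene, 12 of them with a protein-coding gene, and 7 share over 10% of their exon bases. These are Kif20a with Cdc23 (29.3%), Ube2c with Tnnc2 (22.8%), Kif4 with Pdzd11 (15.1%), Ncapg with Lcorl (13.4%), Cdc25c with Gm3550 (12.7%), Ccna2 with Exosc9 (12.5%) and Prc1 with Rccd1 (11.1%), all on opposite strands. The strand of the libraries is not given in the sources used here, so reads in the shared bases cannot be told apart.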

How the data were processed

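Total RNA of B16 and YUMM1.1 cells was measured in 12 libraries, grouped by the sample labels. The deposited tables of counts give whole reads per gene ID, without normalization. The authors' deposited comparison tables list, for each gene in a line, a log2 fold change, a p-value without adjustment and a score (the test statistic). They were used for gene symbols and 1 side-by-side comparison. The build is GRCm38, per the submitters' processing notes, while aligner, counting tool, annotation release and strand were not given in the sources used here.

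Tests used edgeR 4.0.16 in R 4.3.3 (filterByExpr, TMM, quasi-likelihood F tests, Benjamini-Hochberg adjustment over all tested genes). The IFNG effect was fitted on the 6 libraries of a line, and the other comparisons on all 12. Levels and tests carry the precision that depth allows, lowest in B16 Control 3. The fit was tested on simulated data. Of 100 genes changed by a log2 of 1, 98% were called in the B16 comparison and 96% in YUMM1.1. In the difference 64% were called and between untreated lines 91%. The changed genes left out those of lowest level, and no simulated library stood apart. The median change of the members was smaller, at -0.34 in B16 and -0.29 in YUMM1.1, so these shares do not give the power for it. Alternatives used limma 3.58.1 and DESeq2 1.42.0, other scalings and filters, a replicate block, leaving out each library, and lowess offsets for GC content (span 0.3, added after the data were seen). The members and gene lists were chosen with earlier results of these data known. Values in every library are given for 6 anchors (Mki67, Top2a, Cdk1, Ccnb1, Aurkb and Foxm1), for the 6 members of smallest adjusted p in each comparison and for members called against the majority. Where a few other members are given by library, they were chosen after their values were seen. From other lists the genes of smallest adjusted p are named, and a few items are not reported here.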

Additional observations from a re-analysis of the deposited data

Results flagged for a closer look

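For 4 members the effect of IFNG differed between the lines by edgeR's test of the difference itself, with all 4 called lower in B16 and none of them called in YUMM1.1. They are 8.33 percent of the members, and 9.95 percent of all genes were called higher in the same test. The effect in YUMM1.1 minus that in B16 was 0.86 on the log2 scale for Ncapd2, 0.67 for Incenp, 0.57 for Bub3 and 0.53 for Ccnb2.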

How the results depend on the processing

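Of the 24 calls in B16, 19 were kept under all 16 alternatives, and Foxm1, Cdca8, Cenpe, Kif20a and Anln were lost under some. Of the members not called in B16, 15 were called under at least 1 alternative, Mad2l1 with the opposite sign. Such gains numbered 5 in YUMM1.1, 4 in the difference and 9 between untreated lines. Of the 26 calls between untreated lines 9 were lost under some alternative. Leaving out 1 library gave 20 to 32 called members in B16, where 32.5 to 56.2 percent of all genes were called. It gave 0 to 3 in YUMM1.1 (3.21 to 4.4 percent of all genes) and 1 to 6 in the difference between lines (12.3 to 20.3 percent). Between untreated lines it gave 20 to 28 (58.9 to 69.9 percent). With B16 IFNG 1 and 2 summed into 1 library, 22 members were lower, where 19.0 percent of all genes were lower. In YUMM1.1 the 2 calls became 4 with library totals (4.65 percent of all genes called) and 6 without a filter (4.15 percent). They became 6 with DESeq2 (6.36 percent) and 5 with all 12 libraries in 1 fit (5.59 percent). No member was called without Control 2, Control 3, IFNG 2 or IFNG 3. The difference gave 1 call without B16 Control 1 and 2 without B16 Control 2, B16 IFNG 3 or YUMM1.1 IFNG 1. Mad2l1 in B16 went from 0.02 to -0.18 with GC offsets, an alternative chosen after seeing the data. Deviations of same-numbered libraries had r of 0.283, 0.005 and 0.281 in B16 and -0.012, -0.429 and -0.072 in YUMM1.1. Between differently numbered libraries r ran from -0.355 to 0.249 in B16 and from -0.315 to 0.436 in YUMM1.1. Whether the replicate numbers pair the B16 libraries is therefore not settled, and no pairing by number was seen in YUMM1.1. With the number as a replicate block 29 members were called in B16, 1 in YUMM1.1 and 5 in the difference. Of all genes 51.3, 4.32 and 17.2 percent were called in the same fits. No paired analysis was possible for the untreated lines because a block within each line cannot estimate their difference. The causes of these shifts were not tested. The B16 libraries hold fewer counts, so their values carry more counting error.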

Other observations

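Among 11 CDK inhibitor and pocket protein genes, which restrain the cycle, 8 were tested in B16 and 4 fell. Of all genes tested in B16 22 percent were called lower and 22.1 percent higher. Cdkn1a, which encodes p21, was at 221, 226 and 213 scaled CPM in the B16 controls and at 37.0, 38.2 and 44.5 in the treated libraries. Every treated library was far below every control, a 5.45-fold fall by edgeR (log2 -2.45 ± 0.11 SE, adjusted p = 1.18e-07). Cdkn2d (-0.76), the pocket protein gene Rbl2 (-0.36) and its partner E2f4 (-0.47) fell as well, and Cdkn2c rose (log2 0.33 ± 0.12 SE, adjusted p = 0.0468). In YUMM1.1 10 were tested and edgeR called none (1 lower and 0 higher at an unadjusted p below 0.05). Of all genes tested in YUMM1.1 4.56 percent were called, and 6.22 percent were lower and 8.8 percent higher at that unadjusted p. There Cdkn1a was at 273, 364 and 291 in controls and 276, 287 and 338 in treated libraries, with overlap, and the difference between lines was log2 2.42 ± 0.18 SE, adjusted p = 1.89e-07.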
